A study of Mus musculus with 16 samples.

Results

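Feedback and output genes of receptor tyrosine kinase signaling, together with *Phlda1*, were followed in mouse TM4 cells that received a killifish *gdf6Y* plasmid, its del9 mutant or an empty plasmid. They are *Phlda1*, *Mapk6*, *Dusp4*, *Dusp5*, *Dusp6*, *Spry1*, *Spry2*, *Spry4*, *Spred1* and *Etv5*, listed by symbol, and all 10 were found among the 56748 genes counted. The list was drawn up with earlier results of these data known, and the values that led to it are not recorded, so all values below describe these genes and do not test the choice.

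TM4 is an established Sertoli-like line from mouse testis, kept in medium with 10% fetal serum. The EV samples (n = 6) were transfected with the empty plasmid pcDNA3.1-HA, the *gdf6Y* samples (n = 5) with pcDgdf6Y and the del9 samples (n = 5) with pcDgdf6Ydel9, each with 2.5 µg of plasmid per well, and RNA was isolated 24 h later. Gdf6Y is a bone morphogenetic protein encoded on the killifish Y chromosome, and del9 lacks 9 bp of the coding sequence of its prodomain. The comparisons ask which TM4 genes change with *gdf6Y* against an empty plasmid and against the mutant, and the share of cells that took up a plasmid is not given.

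Receptor tyrosine kinases, such as the receptors for fibroblast and epidermal growth factors, pass their signal through Ras, Raf and MEK to the kinases ERK1 and ERK2. Active ERK switches on genes that dampen the same signal. Dual-specificity phosphatases of the Dusp family remove phosphate from MAP kinases, Sprouty and Spred proteins act upstream at the level of Ras and Raf, and *Etv5* is an ETS transcription factor of the PEA3 group that is widely used as a readout of fibroblast growth factor signaling. *Phlda1* is a pleckstrin homology domain protein whose gene responds to growth factors and stress, and *Mapk6* encodes the atypical MAP kinase ERK3, which is not a substrate of the classical cascade and is controlled largely by the stability of the protein.

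The upstream 250 bases of a gene's start, as RefSeq lists them on GRCm38.p6, were at hand for 7 of the 10 genes in 9 windows. They are shown for *Dusp5* and *Mapk6*, whose log2 fold changes with *gdf6Y* were opposite in sign against EV and both negative against del9. Capitals mark a CArG box, the target of serum response factor, or the ETS core CCGGAA on either strand. For *Dusp5* the window is chr19:53528895-53529144 on the plus strand and holds a pair of adjoining CArG boxes. For *Mapk6* it is chr9:75410017-75410266 on the minus strand and holds 1 ETS core, read here as its reverse complement; the other *Mapk6* window, chr9:75409360-75409609, holds none of the motifs.
Dusp5: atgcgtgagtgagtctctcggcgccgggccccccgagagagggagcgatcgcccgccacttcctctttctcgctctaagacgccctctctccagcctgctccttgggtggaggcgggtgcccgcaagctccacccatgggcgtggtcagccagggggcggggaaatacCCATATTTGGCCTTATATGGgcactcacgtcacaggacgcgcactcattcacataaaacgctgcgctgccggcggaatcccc
Mapk6: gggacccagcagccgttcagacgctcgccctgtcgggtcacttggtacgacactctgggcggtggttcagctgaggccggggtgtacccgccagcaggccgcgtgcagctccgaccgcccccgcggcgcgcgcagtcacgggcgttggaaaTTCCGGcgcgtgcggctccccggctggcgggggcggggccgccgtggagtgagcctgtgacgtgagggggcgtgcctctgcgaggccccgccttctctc

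A CArG box stood in 1.47% of the 32817 windows in the table and in 1 of the 9 windows of these genes. The ETS core stood in 12% of all windows and again in 1 of the 9. The AP-1 motif TGANTCA (6.75% of all windows) and the cyclic AMP response element TGACGTCA (1.55%) were in none of the 9. The BMP-responsive element GGCGCC was in 9.59% of all windows and in 3 of the 9. These were the windows of *Dusp5* and *Spred1* and the *Etv5* window chr16:22439571-22439820, while the other *Etv5* window did not hold it. The paired Smad box GTCTAGAC (0.168%) was in none. The motifs were chosen after the values were seen, a match is a description of the letters, and the rows for *Phlda1*, *Dusp4* and *Spry4* were not matched.

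The samples held 21486850 to 26444903 counted reads, and replicates of a group differed beyond counting noise in all 35 pairs. *gdf6Y* replicate 1 stood apart from the other *gdf6Y* samples, with a chi-square per degree of freedom of 7.60 to 11.5 against each of them beside 2.67 to 4.42 among the others. Results of the 10 genes with *gdf6Y* are given without it where that changes a call, and those of the pathway lists for some genes only. *Id1*, a direct BMP target, had a mean of 1035 normalized counts with EV, 1927 with *gdf6Y* and 1235 with del9, and mouse *Gdf6* had no read in any sample. Of 10 Sertoli markers 5 had a mean of at least 10 counts and *Wt1* had none in any of the 16 samples. The Sertoli markers summed to 1682 to 1770 normalized counts with EV, 1497 to 1619 with *gdf6Y* and 1570 to 1734 with del9, and the 4 peritubular myoid markers to 8462 to 8800, 9134 to 9736 and 8816 to 9611, of which *Acta2* and *Tagln* made up nearly all. Most of the Sertoli sum came from *Gata4*, with means of 831 with EV, 722 with *gdf6Y* and 791 with del9, and *Kitl*, with 707, 687 and 709. Leydig, germ cell, macrophage and granulosa markers summed to at most 68.0, and their part in the results, like that of the myoid markers, was not tested. In bulk RNA, fewer responding cells and less RNA per cell cannot be told apart.

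All 10 genes are protein coding and had at least 84 counts in every sample, so no filter on low values removed any of them. The calls of *Dusp5* and *Mapk6* between *gdf6Y* and EV still changed with such a filter, as given below. On GRCm39, the build of the counts, *Phlda1* lies at chr10:111342147-111344506 and *Dusp5* at chr19:53517532-53530862 on the plus strand and *Mapk6* at chr9:75276344-75317312 on the minus strand, and their counts come from exons. Per kilobase of exon, their mean levels with EV ran from 52.5 CPM (counts scaled to library size) for *Mapk6* through 37.2 for *Phlda1*, 22.9 for *Dusp6*, 15.9 for *Spred1*, 8.18 for *Spry2*, 6.78 for *Dusp5*, 5.51 for *Dusp4*, 3.05 for *Etv5* and 1.55 for *Spry4* down to 0.932 for *Spry1*, a span of 56.4-fold. No neighbours in this order overlapped in their EV samples, although the lowest *Dusp5* sample (5.934) all but met the highest *Dusp4* sample (5.926). The order was the same with *gdf6Y* and with del9, where the levels of *Spry2* and *Dusp5* overlapped: with del9 they were 8.56 ± 0.398 and 8.53 ± 1.12 (SD, n = 5). Replicates of *Spry1* varied by 13.1% of the mean with EV, 15.7% with *gdf6Y* and 3.97% with del9, with EV replicate 4 (137) and *gdf6Y* replicate 5 (135 normalized counts) above the other samples of their groups, and those of *Dusp5* by 8.87%, 11.7% and 13.2%.

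**Figure D1:**
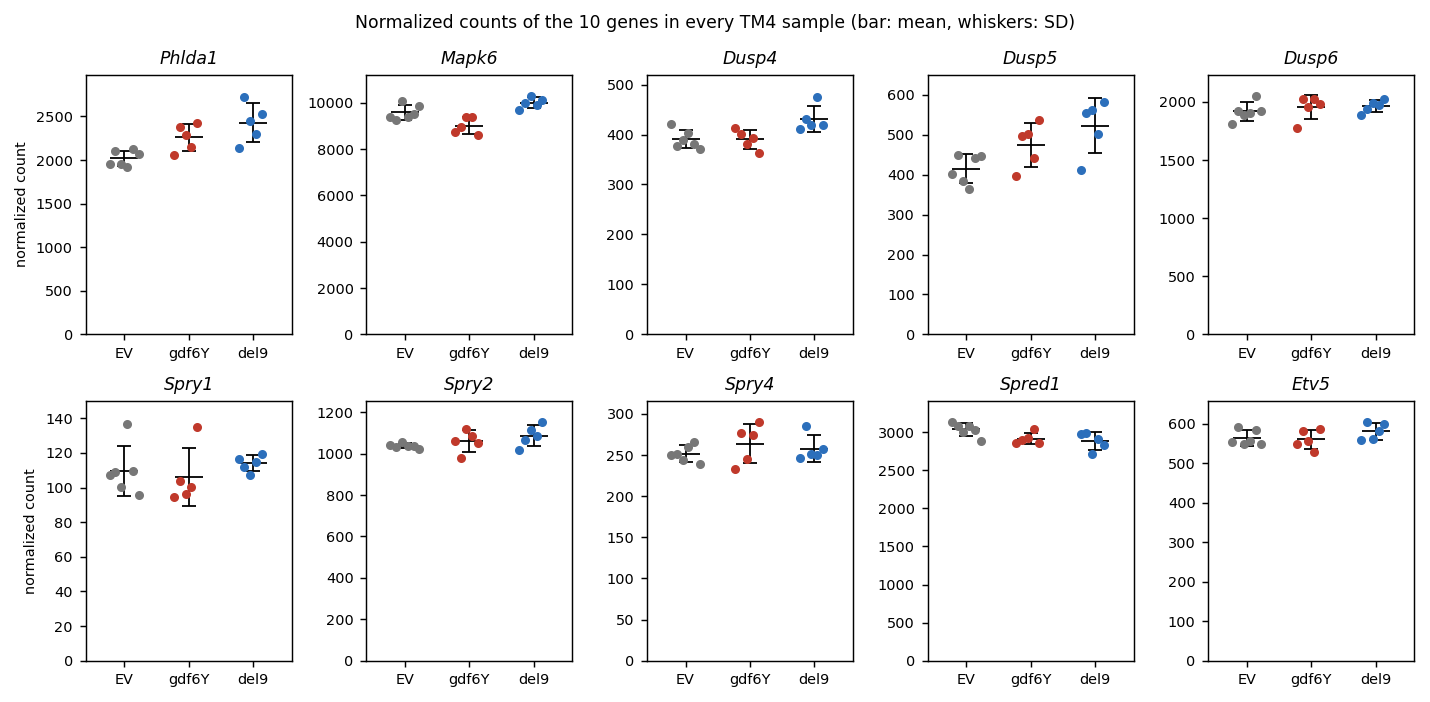
Normalized counts (vertical axes, from 0) of the 10 genes in every EV, *gdf6Y* and del9 sample, 1 panel per gene; points are samples, horizontal bars are means and whiskers are SD. The means of *Phlda1* and *Dusp5* are lowest with EV and highest with del9, and that of *Mapk6* is lowest with *gdf6Y*. The mean of *Dusp4* is 431 with del9 beside 390 with EV and 390 with *gdf6Y*, and the remaining genes lie at similar heights in the 3 groups.

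Between *gdf6Y* and EV, 3 of the 10 genes were called at an adjusted p below 0.05: *Phlda1* and *Dusp5* were higher and *Mapk6* was lower with *gdf6Y*. Over all 26316 genes tested, 1.7% were called higher and 3.38% lower. *Dusp4*, *Dusp6*, *Spry1*, *Spry2*, *Spry4*, *Spred1* and *Etv5* were not called. Between del9 and EV, *Phlda1* and *Dusp5* were again the genes called, higher with del9, and no gene of the list was lower, with 4.82% of all genes called higher and 4.43% lower. Between *gdf6Y* and del9, *Mapk6* was called lower with *gdf6Y* and none was higher, with 0.599% of all genes higher and 0.41% lower. Of genes with a mean normalized count of at least 10, as all 10 members had, 441 of 12606 were higher and 884 lower with *gdf6Y* against EV. With del9 against EV 1254 of 12577 were higher and 1034 lower, and for *gdf6Y* against del9 119 of 12548 were higher and 105 lower. The comparisons with EV share their control samples, so their like directions are not separate evidence.

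*Phlda1* had 1920, 2011 and 2127 normalized counts as the lowest, median and highest of the EV samples. The *gdf6Y* samples had 2062, 2377, 2284, 2148 and 2422, and the del9 samples 2135, 2720, 2450, 2301 and 2529, in the order of replicates 1 to 5. Every del9 sample lay above every EV sample, whereas *gdf6Y* replicate 1 lay within the EV range and the groups *gdf6Y* and del9 overlapped widely. Over all genes tested, the samples did not overlap for 2.61% between *gdf6Y* and EV, 3.77% between del9 and EV and 1.29% between *gdf6Y* and del9.

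With *gdf6Y*, *Phlda1* was 11.9% higher than with EV (log2 fold change 0.16, SE 0.03, edgeR quasi-likelihood adjusted p = 4.27e-05). With del9 it was 20.4% higher (log2 fold change 0.27, SE 0.03, edgeR adjusted p = 2.01e-15). It therefore stood higher with the mutant than with the intact plasmid, by a log2 difference of -0.10 for *gdf6Y* against del9 (SE 0.03, 95% interval -0.17 to -0.03), which missed the threshold (edgeR adjusted p = 0.197). Same-numbered *gdf6Y* and del9 samples deviated together, and a fit blocked by replicate number put the difference past the threshold (log2 fold change -0.10, edgeR adjusted p = 0.0252), with 1.44% of all genes called lower in that fit. *Phlda1* was lower with *gdf6Y* in 5 of 5 same-numbered pairs. Without *gdf6Y* replicate 1 the log2 difference was -0.07 (edgeR adjusted p = 0.636), and the rise against EV was 0.20 (1.26e-07). Without the block the difference from del9 passed when *gdf6Y* replicate 5 (0.0455) or del9 replicate 1 (0.00886) was left out. Replicates of *Phlda1* varied by 4.29% of the mean with EV, 6.72% with *gdf6Y* and 9.16% with del9. The fit takes its spread partly from other genes, so these SE and p-values can be smaller than the replicates of *Phlda1* alone give.

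*Dusp5*, a nuclear phosphatase that binds and dephosphorylates ERK, had 363, 422 and 450 normalized counts as the lowest, median and highest with EV. In replicates 1 to 5 it had 395, 496, 502, 441 and 535 with *gdf6Y* and 411, 555, 560, 500 and 583 with del9. Replicate 1 lay within the EV range in both groups, and *gdf6Y* replicate 4 did as well. Outside these samples the *Dusp5* counts with either plasmid exceeded all EV samples.

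Against EV, *Dusp5* was 14.4% higher with *gdf6Y* (log2 fold change 0.19, SE 0.05, edgeR adjusted p = 0.00619) and 26.2% higher with del9 (log2 fold change 0.34, SE 0.05, edgeR adjusted p = 2.41e-09). As for *Phlda1*, these SE and p-values can be smaller than its own replicates give. The rise with *gdf6Y* was not called with DESeq2 (adjusted p = 0.0747), with the filterByExpr filter on low counts (edgeR adjusted p = 0.105), with an offset for gene length (log2 fold change 0.15, edgeR adjusted p = 0.0606), or without EV replicate 4 (0.062) or *gdf6Y* replicate 5 (0.135). Between *gdf6Y* and del9 the log2 difference of *Dusp5* was -0.13 (SE 0.05, 95% interval -0.24 to -0.03, edgeR adjusted p = 0.298). It was lower with *gdf6Y* in 5 of 5 same-numbered pairs, and with the replicate block it was not called either (edgeR adjusted p = 0.107). Without del9 replicate 1 the edgeR adjusted p was 0.00992 and the log2 difference was -0.21, and without *gdf6Y* replicate 1 they were 0.709 and -0.08.

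*Phlda1* and *Dusp5* kept nearly the same order of samples. Over the 16 samples the log2 CPM of the pair had a Pearson correlation of 0.94, 0.95 over 14 samples without the 2 del9 samples farthest from the median of *Phlda1*, and 0.90 after the group means were taken out. Replicate 1 was the lowest *gdf6Y* sample and the lowest del9 sample for each of them. The points share libraries, depth and group, so these correlations describe the samples. *Phlda1* and *Dusp5* also have the shortest exons in all of the list, with 2205 and 2481 bp against 2877 to 7764 bp for the other 8 genes. With an offset for a trend on gene length, *Phlda1* was higher by a log2 fold change of 0.12 with *gdf6Y* (edgeR adjusted p = 0.00666) and 0.22 with del9 (1.15e-10), and *Dusp5* by 0.29 with del9 (6.41e-07).

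**Figure D2:**
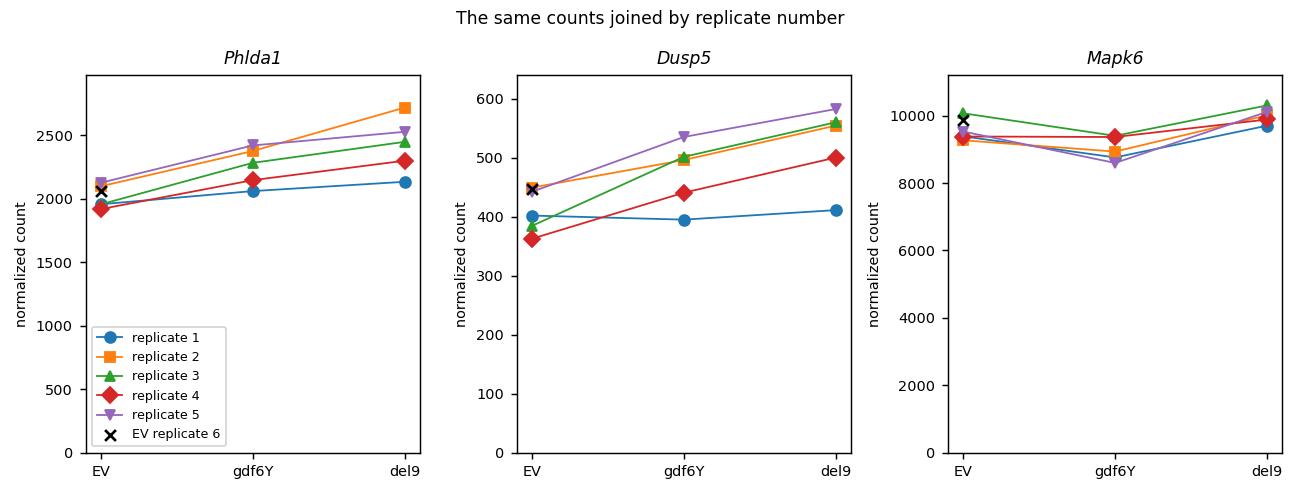
Normalized counts (vertical axes, from 0) of *Phlda1*, *Dusp5* and *Mapk6* with EV, *gdf6Y* and del9, with samples of the same replicate number joined by lines and EV replicate 6 as a cross. All 5 lines rise from *gdf6Y* to del9 in each panel, replicate 1 is lowest with *gdf6Y* and del9 for *Phlda1* and *Dusp5*, and the *Mapk6* lines dip at *gdf6Y* except that of replicate 4, which is nearly level from EV.

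*Mapk6* had 9267, 9456 and 10068 normalized counts as the lowest, median and highest with EV. In replicates 1 to 5 it had 8758, 8932, 9399, 9364 and 8595 with *gdf6Y* and 9699, 10007, 10301, 9883 and 10109 with del9. The highest *gdf6Y* sample lay below the lowest del9 sample, so these groups did not overlap, while *gdf6Y* replicates 3 and 4 lay within the EV range. The EV samples sat between the others, and their 2 highest values reached into the del9 range.

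With *gdf6Y*, *Mapk6* fell by 9.58% against del9 (log2 fold change -0.15, SE 0.03, edgeR adjusted p = 0.000308), and it stayed called without any single sample (edgeR adjusted p at most 0.00383). Against EV it fell by 5.86% (log2 fold change -0.09, SE 0.03, edgeR adjusted p = 0.0227). That call was lost with filterByExpr (0.0592) and without EV replicate 3 (0.177), EV replicate 6 (0.092), *gdf6Y* replicate 1 (0.0776), *gdf6Y* replicate 2 (0.054) or *gdf6Y* replicate 5 (0.174). With del9 *Mapk6* was 4.56% above EV (log2 fold change 0.06, SE 0.03, edgeR adjusted p = 0.0935), which was not called and passed without EV replicate 3 (0.0361) or del9 replicate 1 (0.0483). *Mapk6* belongs to the genes the study selected on these samples and was followed here with that known. None of the 5 listed partners of *Mapk6*, namely *Mapk4*, *Mapkapk5*, *Pak1*, *Pak2* and *Ncoa3*, was called in any of the 3 comparisons. *Mapk4* had at most 1 read in any sample. With the replicate block *Ncoa3* was lower with *gdf6Y* than with EV (log2 fold change -0.11, edgeR adjusted p = 0.0198).

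*Dusp4*, a nuclear phosphatase of ERK and other MAP kinases, had 372, 385 and 420 normalized counts as the lowest, median and highest with EV. It had 414, 401, 381, 393 and 363 with *gdf6Y* and 411, 430, 418, 476 and 419 with del9 in replicates 1 to 5. The *gdf6Y* samples spread across the EV range and slightly below it, and del9 replicate 4 stood above all other samples. *Dusp4* did not differ between *gdf6Y* and EV beyond the spread, with a log2 fold change of 0.00 and a 95% interval of -0.11 to 0.11. With del9 it was 10.5% above EV (log2 fold change 0.14, SE 0.05, edgeR adjusted p = 0.0596), which missed the threshold and passed it without EV replicate 1 (0.0355) or del9 replicate 1 (0.0423). For *gdf6Y* against del9 its log2 difference of -0.14 (SE 0.06) had an edgeR adjusted p of 0.361.

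*Dusp6*, the cytoplasmic ERK phosphatase and a common marker of fibroblast growth factor signaling, ranged from 1807 to 2052 normalized counts with EV, 1774 to 2028 with *gdf6Y* and 1890 to 2027 with del9. The groups coincided, and its 95% intervals were -0.04 to 0.09 on the log2 scale for *gdf6Y* against EV, -0.02 to 0.10 for del9 against EV and -0.07 to 0.07 for *gdf6Y* against del9. None of the 3 was called, with edgeR adjusted p of 0.697, 0.522 and 0.988. Among the 3 Dusp genes a rise was called in *Dusp5* only, and that of *Dusp4* with del9 (log2 fold change 0.14, edgeR adjusted p = 0.0596) missed the threshold. The differences between the 3 genes were not tested.

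*Spry1*, *Spry2* and *Spry4* encode Sprouty proteins, which interfere with the signal between the receptor and Raf. *Spry1* had 95.5 to 137 normalized counts with EV, 94.6 to 135 with *gdf6Y* and 107.4 to 119 with del9, and *Spry2* had 1020 to 1058, 977 to 1120 and 1017 to 1153. *Spry4* had 239 to 266 with EV, 234 to 290 with *gdf6Y* and 246 to 285 with del9. The ranges of all 3 genes overlapped in each comparison. Their log2 fold changes lay between -0.11 for *Spry1* between *gdf6Y* and del9 and 0.07 for *Spry2* between del9 and EV, and the smallest edgeR adjusted p of the 9 was 0.304. The SE was 0.09 to 0.10 for *Spry1*, with a mean of 109.6 normalized counts with EV, and 0.04 for *Spry2*, with 1038.

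*Spred1*, a Sprouty-related protein that brings neurofibromin to Ras, had 2889, 3053 and 3137 normalized counts as the lowest, median and highest with EV. It had 2860, 2891, 2920, 3038 and 2860 with *gdf6Y* and 2980, 2983, 2709, 2904 and 2827 with del9 in replicates 1 to 5. All of these samples lay below the EV median, yet each group overlapped the EV range. The log2 fold change of *Spred1* was -0.06 with *gdf6Y* (SE 0.03, edgeR adjusted p = 0.365) and -0.07 with del9 (SE 0.03, edgeR adjusted p = 0.104). It was lower than EV in 5 of 5 pairs of equal replicate number with either plasmid. Such pairs with EV did not all deviate together, and both counts share the EV samples, so they only describe the samples. The difference with del9 passed the threshold without del9 replicate 1 (edgeR adjusted p = 0.0359) or del9 replicate 2 (0.0477).

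*Etv5* ranged from 548 to 591 normalized counts with EV, 530 to 586 with *gdf6Y* and 559 to 605 with del9. Its log2 fold changes were -0.01 for *gdf6Y* against EV, 0.05 for del9 against EV and -0.05 for *gdf6Y* against del9, with SE of 0.05 each. None was called, and the smallest edgeR adjusted p was 0.545. *Etv4*, another factor of the PEA3 group, was higher with del9 than with EV (log2 fold change 0.12, SE 0.03, edgeR adjusted p = 0.00244), though not with the length offset (0.0909).

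**Figure D3:**
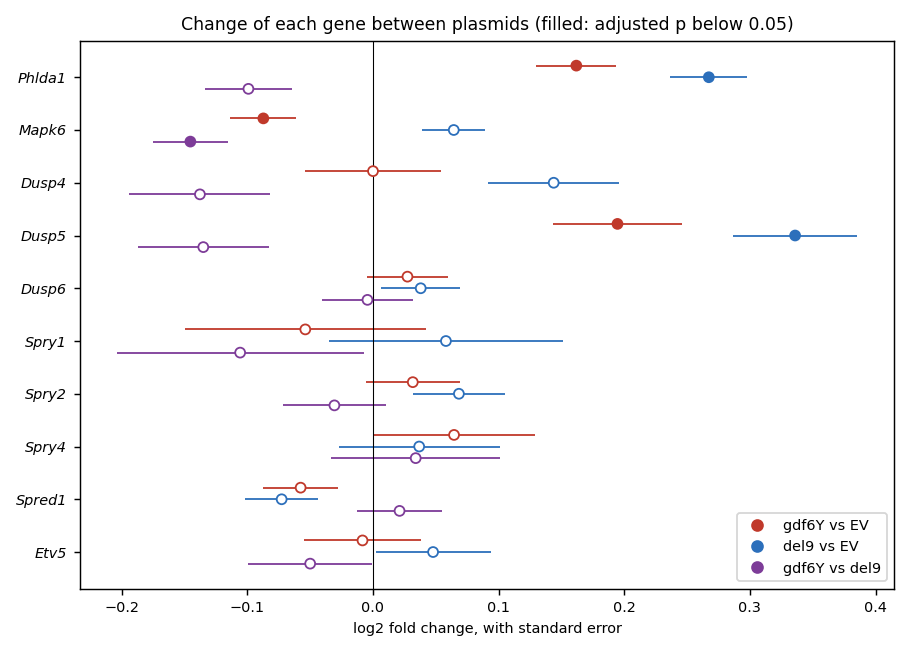
Log2 fold change (horizontal axis) of each of the 10 genes for *gdf6Y* against EV, del9 against EV and *gdf6Y* against del9; bars are standard errors and filled points have an adjusted p below 0.05. The filled points are those of *Phlda1* and *Dusp5* against EV, to the right of 0, and those of *Mapk6* for *gdf6Y* against EV and against del9, to the left.

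By the correlation of log2 CPM over the 16 samples, among 10074 genes with a mean of at least 100 counts, the genes most like *Phlda1* were *Pno1* (0.967), *Tnfrsf12a* (0.960), *Rnps1* (0.959) and *Ank* (0.958). *Dusp5* came at rank 13 with 0.942. The genes most like *Mapk6* were *Il1rl1* (0.930), *Il33* (0.926), *Il18rap* (0.917), *Eps8* (0.900) and *Itga3* (0.889). These samples fall into 3 groups and share their depth, so the values rank genes and test nothing.

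The other genes of the pathway were taken from lists set out for this work, 101 genes of which 94 to 96 were tested, and their counts stand beside the shares of all genes called, 1.7% higher and 3.38% lower with *gdf6Y* against EV, 4.82% and 4.43% with del9 against EV, and 0.599% and 0.41% for *gdf6Y* against del9. Of 14 early genes that ERK induces, 7 rose and none fell with del9 against EV, with a median log2 fold change of 0.13 beside -0.01 over all genes tested. The 7 were *Fosl1*, *Jun*, *Ier2*, *Ccnd1*, *Egr1*, *Junb* and *Myc*. DESeq2 and filterByExpr called 5 of the list higher, and with the length offset 6 rose and *Ier3* fell (-0.13, edgeR adjusted p = 0.000171). The exons of this list are short, with a median of 3297 bp beside 6152 bp for the expressed genes. With *gdf6Y* against EV, *Fosl1* rose and *Ier3* fell, the latter not with DESeq2 (adjusted p = 0.479), and with *gdf6Y* replicate 1 left out 3 rose and 1 fell.

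*Fosl1*, a partner of *Jun* in AP-1, rose with del9 (log2 fold change 0.27, SE 0.03, edgeR adjusted p = 2.53e-14) and with *gdf6Y* (0.16, 0.000244). *Jun* rose with del9 by 0.23 (SE 0.03, edgeR adjusted p = 8.5e-09) and was lower with *gdf6Y* than with del9 by -0.23 (SE 0.04, 1.74e-06), a call lost with filterByExpr (0.118). *Ier2* and *Ccnd1*, which encodes cyclin D1, rose with del9 by log2 fold changes of 0.25 (SE 0.04) and 0.15 (SE 0.02). With the replicate block, 5 of the 14 were lower with *gdf6Y* than with del9 and none was higher, against 1 without it. Over all genes tested, the blocked fit called 1.44% lower and 1.12% higher.

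**Figure D4:**
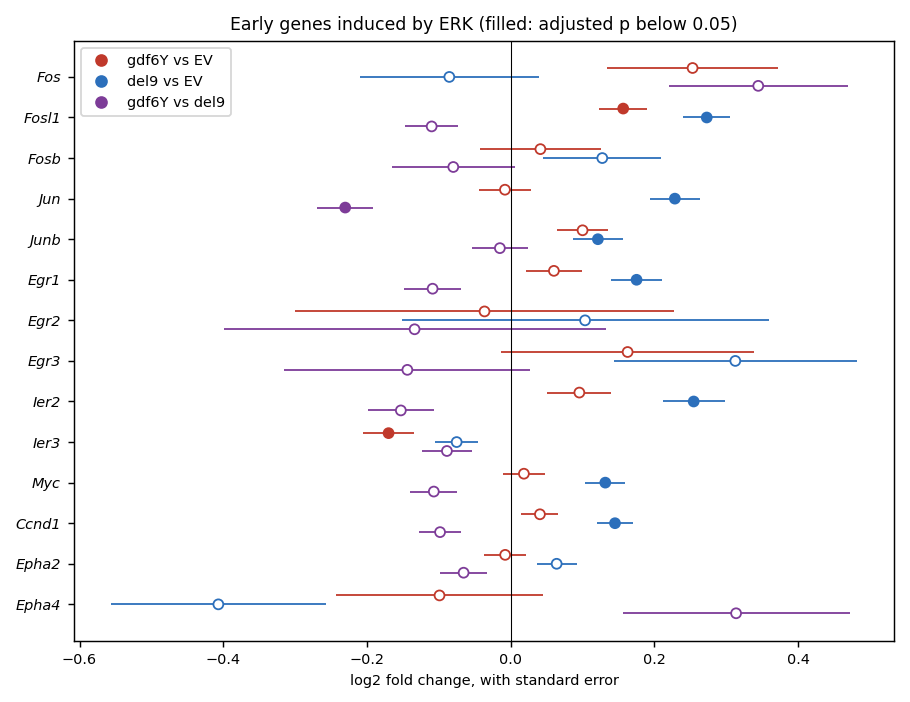
Log2 fold change (horizontal axis) of the 14 early genes that ERK induces for *gdf6Y* against EV, del9 against EV and *gdf6Y* against del9; bars are standard errors and filled points have an adjusted p below 0.05. For del9 against EV 7 points are filled, all to the right of 0, while *gdf6Y* against EV has 1 on either side.

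Of the 8 other MAP kinase phosphatases, 3 fell and none rose with *gdf6Y* against EV, and 2 fell with DESeq2, filterByExpr, the model of all 3 groups or the length offset. *Dusp7*, which acts on ERK in the cytoplasm, fell by 0.16 on the log2 scale against EV (SE 0.03, edgeR adjusted p = 0.000127) and by 0.16 against del9 (SE 0.04, 0.0016), with 1799 to 1897 normalized counts with EV, 1619 to 1679 with *gdf6Y* and 1794 to 1897 with del9. The *Dusp7* calls held under every setting run for the lists, and *Dusp7* is, like *Mapk6*, among the genes selected by the study on these samples. *Dusp1*, which acts mostly on stress kinases, fell with *gdf6Y* (-0.16, SE 0.04) and with del9 (-0.23, SE 0.04), and neither call held with DESeq2 (adjusted p = 0.423 and 0.144). *Dusp16* fell with *gdf6Y* (-0.11, SE 0.03), which the length offset did not call (edgeR adjusted p = 0.0571). *Dusp9* rose with del9 (0.26, SE 0.04, edgeR adjusted p = 4.9e-08) and was lower with *gdf6Y* than with del9 (-0.16, SE 0.05, 0.0422), the latter not with DESeq2 (0.672) or without *gdf6Y* replicate 1 (0.196). With the replicate block *Dusp10* was also higher with *gdf6Y* than with del9. Neither *Spred2* nor *Spred3* was called, nor was *Phlda3*.

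Of 10 genes listed as other negative regulators of receptors or Ras, 3 fell with *gdf6Y* and 3 fell and 2 rose with del9, against EV. *Rabgap1l* is among those that fell in either comparison. These genes have a median of 12807.5 bp of exon, and with the length offset 2 fell with *gdf6Y* and 2 fell and 1 rose with del9. *Nf1*, the Ras GTPase activator that Spred proteins recruit, fell with *gdf6Y* (-0.21, SE 0.03, edgeR adjusted p = 3.29e-08) and with del9 (-0.18, SE 0.03, 6.55e-07), and was called under every setting run for the lists. *Cbl* fell with *gdf6Y* (-0.15, SE 0.03) and with del9 (-0.12, SE 0.03), the latter not with the offset (edgeR adjusted p = 0.102). *Rabgap1l*, listed here although its name is that of a GTPase activator for Rab and not Ras, fell with del9 (-0.18, SE 0.04) and with *gdf6Y* (-0.12, SE 0.04). With *gdf6Y* the offset left a log2 fold change of 0.00 (edgeR adjusted p = 0.97), and the fall was not called without *gdf6Y* replicate 1 (0.0546). *Errfi1*, an inhibitor of epidermal growth factor receptors, rose with del9 (0.16, SE 0.03) and was lower with *gdf6Y* than with del9 (-0.17, SE 0.03, edgeR adjusted p = 1.95e-05). *Pebp1* was the other to rise with del9, and it was not called with any alternative but the replicate block.

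Of 10 other ETS factors, *Elk4* fell with *gdf6Y*, and *Etv4*, *Erf* and *Elk3* rose and *Ets2* and *Etv1* fell with del9, against EV. With the length offset none of them rose, *Ets2* and *Etv1* fell with del9 and *Elk4* was not called (0.263). *Elk4* was not called with DESeq2 either (0.0731).

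Of 16 receptor tyrosine kinases 6 fell and none rose with *gdf6Y*, and 4 fell with del9, against EV. *Insr* fell with *gdf6Y* (-0.19, SE 0.03) and with del9 (-0.20, SE 0.03), and *Egfr* fell with *gdf6Y* (-0.20, SE 0.04, edgeR adjusted p = 0.000174). *Pdgfra* and *Igf1r* fell with *gdf6Y* and with del9, *Fgfr1* and *Met* with *gdf6Y* and *Pdgfrb* with del9. These genes have a median of 9189.5 bp of exon, and with the length offset 3 fell with either plasmid. In *gdf6Y* replicate 1, *Insr*, *Nf1*, *Cbl*, *Braf* and *Igf1r* lay within or above the range of the EV samples, and all 5 were also called lower without it. None of the receptors was called between *gdf6Y* and del9, and 3 were lower with the replicate block, a fit that called 1.44% of all genes lower. Without *gdf6Y* replicate 1, *Fgfr1* (log2 fold change -0.12, edgeR adjusted p = 0.0381) and *Met* (-0.11, 0.0473) were called lower with *gdf6Y* than with del9. Fits with a sample left out called 66 to 198 of all genes lower.

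Of 18 genes of the ERK cascade, *Hras* and *Map2k2* rose with *gdf6Y* and with del9 against EV and *Grb2* rose with del9. *Braf* and *Sos1* fell with either, and with the length offset *Braf* with *gdf6Y* (edgeR adjusted p = 0.117) and *Sos1* with *gdf6Y* (0.14) and del9 (0.256) were not called, nor was *Grb2* (0.174). Of 12 ligands tested, *Hbegf*, a ligand of the epidermal growth factor receptor, rose with del9 (0.33, SE 0.03, edgeR adjusted p = 2.38e-18) under every setting run for the lists. It also rose with *gdf6Y* (0.13, SE 0.04, edgeR adjusted p = 0.0156) and was lower with *gdf6Y* than with del9 (-0.20, SE 0.04, 9.88e-05), neither of which DESeq2 called (adjusted p = 0.132 and 0.193) nor filterByExpr. *Fgf10* fell with del9 (-0.18, SE 0.03) and was higher with *gdf6Y* than with del9 (0.12, SE 0.03, edgeR adjusted p = 0.0411), the latter not with DESeq2 (0.491) or without *gdf6Y* replicate 1 (0.157). *Ier3*, *Elk3*, *Elk4*, *Pebp1*, *Grb2*, *Egr1*, *Junb*, *Myc*, *Dusp10*, *Fgfr1*, *Met* and *Pdgfrb* are named to complete these counts, after their values were seen.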

How the data were processed

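RNA-Seq counts of TM4 cells with EV (6 samples), *gdf6Y* (5) or del9 (5) were analysed. For the deposited counts, which are raw whole numbers per gene, the authors mapped reads to GRCm39 with STAR 2.7.10a, dropped PCR duplicates by molecular identifier with UMI-tools and counted unique reads by strand with featureCounts 2.0.3, leaving out reads that fit several places or genes. No exon of the 10 genes overlapped another gene on its strand. Replicate 6 of *gdf6Y* and of del9, which the study excluded for lower quality, was not analysed here.

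As in the study, genes needed 1 count or more in a sample of the comparison, and 2 groups at a time were compared without covariates. The study tested with DESeq2; the test here was the quasi-likelihood test of edgeR 4.0.16 (R 4.3.3) with TMM scaling. Benjamini-Hochberg adjustment ran over all genes tested, and genes were called at an adjusted p below 0.05. A normalized count is a count over its effective library size, times the mean of that size over the 16 samples. The SE is the log2 fold change over the root of its F statistic, and 95% intervals span 1.96 SE to either side. GENCODE (GRCm39) gave symbols and exonic lengths. Scripts were tested on simulated data.

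The labels do not say whether replicates are separate cultures, so p-values rest on the spread between these samples, which may be technical. The edgeR fit takes that spread partly from other genes, so an SE or interval can be narrower than a gene's own replicates give. Replicates of *Dusp1* varied by 14.8% of the mean with EV and 14.0% with *gdf6Y*. Its fall with *gdf6Y* was called by edgeR (adjusted p = 0.00586) and not by DESeq2 (adjusted p = 0.423). Same-numbered *gdf6Y* and del9 samples deviated together from their group means (r = 0.133 to 0.196 over 12584 genes in the 5 pairs), so the replicate block is given there. The other alternatives were DESeq2 1.42.0, its size factors, filterByExpr, all 3 groups in 1 model, an offset on gene length, block and offset together, and each sample left out. Members, gene lists, markers and motifs were chosen with earlier results of these data known. The genes named are the 10 members, the called genes of each list (at most 4, by smallest adjusted p, besides those completing a count) and the 5 genes most like *Phlda1* and *Mapk6*, at a pseudocount of 2, of which 1 is not reported here.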

Additional observations from a re-analysis of the deposited data

Results flagged for a closer look

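Dixon's ratio, the gap between an extreme sample and its nearest neighbour over the range of the group, picked out 1 sample in 5 of 33 groups of values; by chance about 1 in 20 would. *Spry1* in EV replicate 4 had 137 normalized counts against 95.5 to 110 in the other EV samples (ratio 0.658). *Spry1* in *gdf6Y* replicate 5 had 135 against 94.6 to 104 (0.773). *Dusp6* in *gdf6Y* replicate 1 had 1774 against 1958 to 2028 (0.726). *Spry4* in del9 replicate 2 had 285 against 246 to 257 (0.727). The total count of del9 replicate 3 was 24608410 against 25650188 to 26071045 (0.712). None of these genes was called in any comparison, with or without any single sample.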

How the results depend on the processing

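Of the 3 genes called, *Phlda1* was higher with *gdf6Y* and with del9 than with EV, *Dusp5* was higher with del9 than with EV and *Mapk6* was lower with *gdf6Y* than with del9 under every alternative run. *Dusp5* and *Mapk6* between *gdf6Y* and EV were not, and no called direction reversed. Of the member values in the 3 comparisons, 200 kept their side of the threshold under the other settings, 6 gained and 4 lost the call, and with a sample left out 304 kept it, 9 gained and 7 lost it. Between *gdf6Y* and EV, 448 genes were called higher and 890 lower; the higher ones were 821 with the replicate block and 812 with the block and the length offset, which called 953 lower and so moved the split, and with a sample left out 235 to 718 were higher and 559 to 1033 lower. Members higher were 2, and 1 with DESeq2, filterByExpr, the length offset or some samples left out (1 to 2); members lower were 1, and 0 with filterByExpr or some samples left out (0 to 1). Between *gdf6Y* and del9, 155 genes were higher and 106 lower, 48 and 33 with DESeq2, 26 and 19 with filterByExpr, 289 and 372 with the replicate block, 328 and 311 with the block and the length offset, and 94 to 243 and 66 to 198 with a sample left out. Members lower were 1, 2 with the replicate block with or without the length offset and 1 to 3 with a sample left out. Between del9 and EV, 2 members were higher, 2 to 4 with a sample left out, and none lower, 1 with the replicate block with or without the length offset and 0 to 1 with a sample left out. In the comparisons with EV not every same-numbered pair reached the correlation set for pairing (r = 0.0316 to 0.249 for *gdf6Y* and 0.0184 to 0.191 for del9, the lowest in replicates 3 and 1); there the block called *Mapk6* higher (log2 fold change 0.07, edgeR adjusted p = 0.00372) and *Spred1* lower (-0.09, 0.0123) with del9, and EV replicate 6 had no partner. Beyond these and *Phlda1* between *gdf6Y* and del9, the block changed no other call of a member. Calls of the lists without *gdf6Y* replicate 1 were added after the data were seen. The causes were not tested; filterByExpr tested fewer genes. *Spry1* had the fewest reads of the members, 84 to 137 per sample, and the largest SE, 0.09 to 0.10 on the log2 scale.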
